A study of Homo sapiens with 6 samples.

Results

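Transcripts of 33 genes of one-carbon metabolism and of purine and pyrimidine synthesis were compared between enzalutamide-resistant and parental prostate cancer cells. The genes were taken by symbol: a row of the deposited count table belonged to the set if its symbol was among the 33 names. That rule reads names and no measured values, but the names themselves were chosen with earlier results of these data known. All 33 were found among the 23998 symbols of the table, and all 33 were among the 15422 genes that passed the filter on low counts. Poly(A) RNA was sequenced from LNCaP, an established human prostate cancer line with an androgen-dependent luminal character. The LNCaP-ENZR group (3 libraries) is a derivative that had been kept with enzalutamide, an antiandrogen drug, at 5 to 50 µM for more than 12 months while growing in 10% serum that had been stripped of steroids with charcoal. The LNCaP-WT group (3 libraries) is the untreated parental line. The growth protocol in the labels gives RPMI 1640 with 10% serum for all libraries, so which serum and whether any drug was present at harvest are not known. Drug history, serum and time in culture cannot be told apart in this design, the derivation of the resistant cells was not repeated, and the libraries of a group are not said to come from separate cultures, so that p-values measure the spread between libraries only.

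One-carbon metabolism moves single carbon units, taken mostly from serine, on carriers made from the vitamin folate. A mitochondrial branch oxidises the carbon of serine to formate, and a cytosolic branch takes formate up again for purine rings and for thymidylate, while methylated folate feeds the methionine cycle that supplies S-adenosylmethionine to methyltransferases. Purines are built on the ribose of PRPP, step by step, up to IMP, from which AMP and GMP branch off. The pyrimidine ring is made first and then joined to PRPP to give UMP, from which CTP and the thymidine nucleotides derive. Dividing cells draw on these routes for DNA and RNA, and many of the genes are known targets of the transcription factor MYC.

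Total counts were 35790974 to 36610862 in LNCaP-ENZR and 34505712 to 35531519 in LNCaP-WT. The set took up 0.446% to 0.449% of all counts in LNCaP-ENZR and 0.290% to 0.297% in LNCaP-WT. Levels below are CPM, counts relative to library sizes scaled by TMM, a method that makes the bulk of genes comparable between libraries. Fold changes set LNCaP-ENZR over LNCaP-WT and come from the edgeR quasi-likelihood test (n = 3 each, log2 values ± SE), and a gene rose or fell if its p-value, adjusted by Benjamini-Hochberg over the 15422 tested genes, was under 0.05. Differences between these groups were widespread: 34.4% of all tested genes rose and 34.8% fell. Of 13 markers of luminal prostate and LNCaP cells, all were detected in both groups, 9 fell, 3 rose and 1 did not pass, and their summed level was 3480.3 to 3609.5 CPM in LNCaP-ENZR and 6520.3 to 6654 CPM in LNCaP-WT. ACP3, prostatic acid phosphatase, fell 12.3-fold. KLK3, the gene of prostate-specific antigen, fell 3.52-fold, and FOLH1, a folate hydrolase better known as prostate-specific membrane antigen, 2.03-fold. Markers of the PC-3 and DU145 lines summed to 159.6 to 177 CPM in LNCaP-ENZR and 185 to 203 CPM in LNCaP-WT, 73.0% of it from EGFR. CD44, CAV1, AXL and ANXA1 were near 0 in every library and did not pass the filter on low counts. Of the 4 tested, 1 rose and 2 fell, among them MET, a receptor kinase gene, by 2.52-fold. Endothelial and fibroblast markers summed to 138 to 175 CPM in LNCaP-ENZR and 128 to 141 CPM in LNCaP-WT, 70.5% of it from COL1A1, which did not pass. Of the 8 tested, the endothelial gene VWF rose 44.4-fold, with 31.3 ± 2.04 CPM in LNCaP-ENZR and 0.701 ± 0.451 CPM in LNCaP-WT, the smooth muscle gene TAGLN fell 2.69-fold, and the other 6 did not pass. CDH5 and PECAM1, which define endothelial cells, were near 0 in every library. Leukocyte markers summed to 15.9 to 19.6 CPM in LNCaP-ENZR and 14.1 to 15.7 CPM in LNCaP-WT, of which 95.7% was CD68, 1 of the 2 tested genes rose, and CD3E and CD3D had levels of 0 or near 0 in every library. EGFR, CD44, CAV1, AXL, ANXA1, COL1A1, CDH5, PECAM1, CD68, CD3E and CD3D were named after their values were seen.

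Nearly the whole synthesis set was higher in the resistant cells. Of the 33 genes, 30 rose, 1 fell and 2 did not pass, against 34.4% of all tested genes that rose and 34.8% that fell. Because the 33 names were chosen with earlier results known, these shares are a description and no test. At least a 1.5-fold rise was seen for 24 of the 33, against 19.2% of all tested genes, and at least a 1.5-fold fall for 1, against 20.9%. The median log2 fold change was 0.70 over the 33 genes and -0.012 over all tested genes. In 30 genes every LNCaP-ENZR library lay above every LNCaP-WT library, against 35.8% of all tested genes, and in 1 gene every LNCaP-ENZR library lay below, against 36.4%. Groups without overlap were thus common, in 11129 of the 15422 tested genes, which applies to each such statement below. Summed over the set, the level was 4575 to 4631 CPM in LNCaP-ENZR and 2810.5 to 2890.5 CPM in LNCaP-WT. The gene that fell was CMPK1, a kinase of pyrimidine nucleotides, and the 2 that did not pass, MTR and MAT2B, belong to the methionine cycle.

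**Figure D1:**
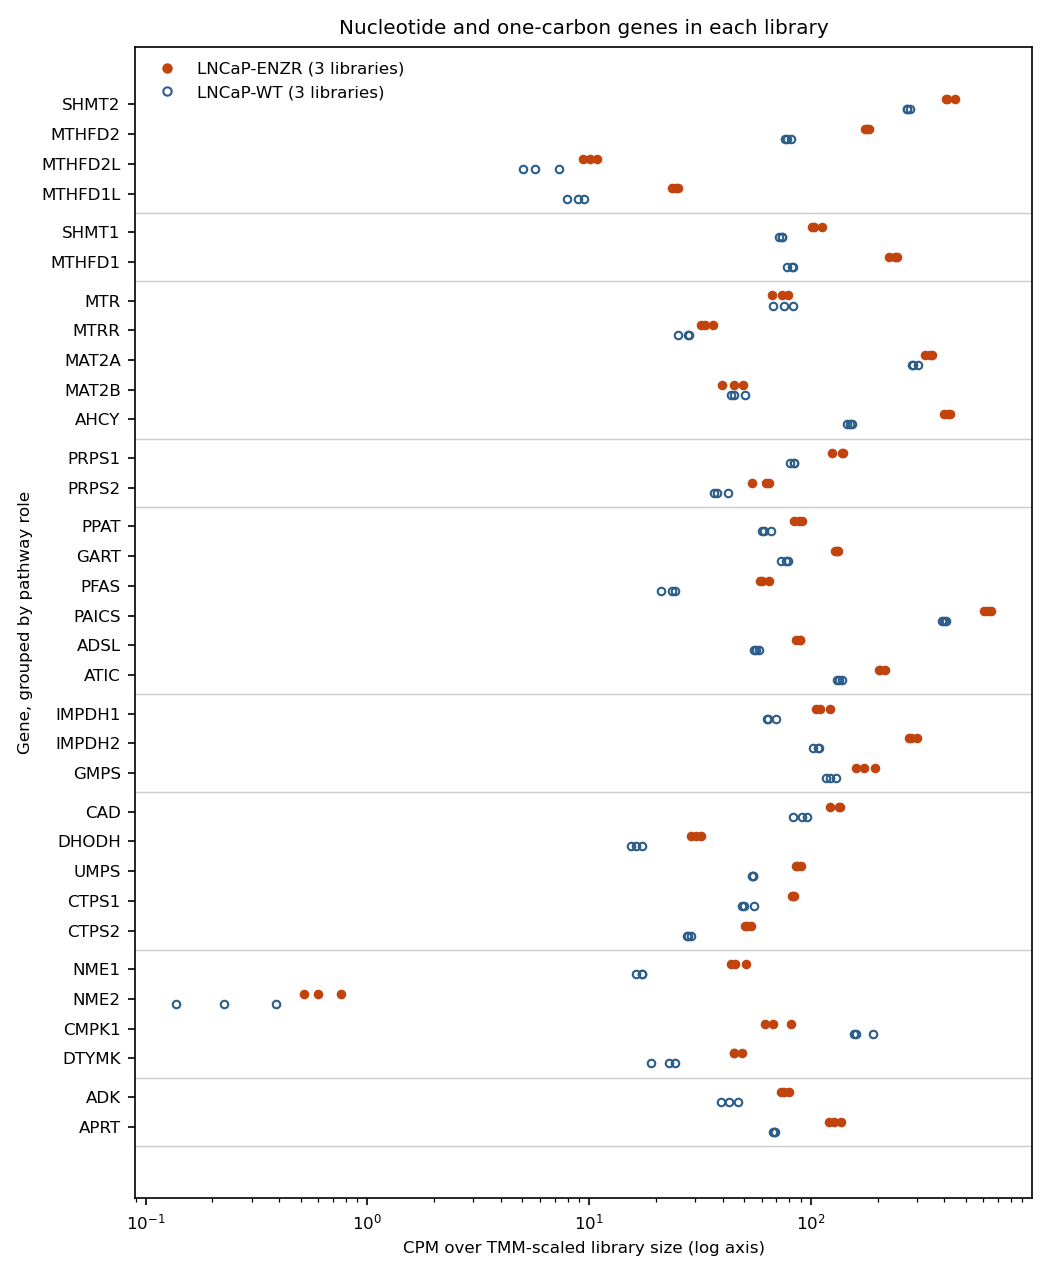
Level of each of the 33 genes in each library, as CPM over TMM-scaled library size on a log axis, with filled points for the 3 LNCaP-ENZR libraries and open points for the 3 LNCaP-WT libraries and grey lines between pathway roles. Filled points lie to the right of all open points in 30 genes, to the left in CMPK1, and overlap them in MTR and MAT2B.

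The same RNA also differed in its content of proliferation transcripts. Of 24 proliferation markers 23 rose and 1 fell (CCNE2, named after its value was seen), with a summed level of 3714 to 3802 CPM in LNCaP-ENZR and 1465 to 1469 CPM in LNCaP-WT. The mitotic kinases AURKB, PLK1 and AURKA rose 4.23-fold, 3.99-fold and 3.50-fold, the mitotic cyclin CCNB2 3.96-fold, and the replication helicase subunit MCM2 3.69-fold. A set of 6 transcripts whose level can depend on RNA preparation, nuclear-retained RNAs and replication-dependent histone mRNAs, fell in 6 of 6 cases. Whether preparation or the state of the cells lay behind this fall was not tested. The summed level of the 6 was 2141 to 2235 CPM in LNCaP-ENZR and 5158 to 5548 CPM in LNCaP-WT, 66.8% of it from NEAT1. NEAT1 fell 2.16-fold and MALAT1 3.27-fold, and the histone genes H2BC5, H2BC21 and H2AC6 fell 5.47-fold, 5.39-fold and 4.08-fold. The part of either difference in the results for the synthesis genes was not tested. More dividing cells and more RNA of these genes per cell cannot be told apart in bulk RNA.

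All 4 mitochondrial folate genes rose, by a median of 0.97 on the log2 scale and with adjusted p-values of at most 1.0e-04 (edgeR, Benjamini-Hochberg). SHMT2, the mitochondrial hydroxymethyltransferase that takes the carbon unit from serine, had 413, 447 and 406 CPM in the LNCaP-ENZR libraries, against 272, 272 and 282 CPM in the LNCaP-WT libraries. It rose 1.53-fold (log2 fold change 0.62 ± 0.053). MTHFD2, the dehydrogenase and cyclohydrolase that oxidises this unit, had 183, 179 and 175 CPM in the LNCaP-ENZR libraries, against 76.4, 81.3 and 78.2 CPM in the LNCaP-WT libraries. That is a 2.28-fold rise (1.19 ± 0.055 on the log2 scale), and the groups were far apart. MTHFD2L, a related enzyme of the same step, was scarce, with 10.9, 9.36 and 10.1 CPM in the LNCaP-ENZR libraries, against 5.04, 7.31 and 5.71 CPM in the LNCaP-WT libraries. Its rise of 1.68-fold (0.75 ± 0.14) was the least precise of the 4. MTHFD1L, the synthetase that releases formate at the end of the branch, had 25.3, 24.7 and 23.6 CPM in the LNCaP-ENZR libraries, against 7.97, 9.45 and 8.87 CPM in the LNCaP-WT libraries. It rose 2.80-fold (1.49 ± 0.095), the steepest change in the branch. No library of either group overlapped the other group in any of the 4 genes.

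Both cytosolic folate genes rose, by unequal amounts. SHMT1, the cytosolic counterpart of SHMT2, had 104, 112 and 101 CPM in the LNCaP-ENZR libraries, against 74.4, 72.0 and 74.2 CPM in the LNCaP-WT libraries, a rise of 1.44-fold (0.52 ± 0.060, adjusted p = 2.2e-07, edgeR). MTHFD1, the cytosolic enzyme that charges folate with formate and converts the carbon unit between its oxidation states, had 225, 240.4 and 244 CPM in the LNCaP-ENZR libraries, against 78.3, 83.4 and 82.6 CPM in the LNCaP-WT libraries. At 2.91-fold (1.54 ± 0.056, adjusted p = 1.5e-14, edgeR) it had the highest fold change of the 33 genes. MTHFD1L, which releases formate, and MTHFD1, which charges folate with it, thus had larger rises than the serine-using enzymes SHMT2 and SHMT1. This ordering is a description without a test.

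In the methionine cycle the genes moved unevenly, and 3 of 5 rose. AHCY, which removes S-adenosylhomocysteine after methyl transfer, had 401, 423 and 415 CPM in the LNCaP-ENZR libraries, against 146, 153 and 151 CPM in the LNCaP-WT libraries. It rose 2.75-fold (1.46 ± 0.052, adjusted p = 9.2e-15, edgeR). MAT2A, the catalytic subunit that makes S-adenosylmethionine, had 350.4, 329 and 344 CPM in the LNCaP-ENZR libraries, against 305, 287 and 290.2 CPM in the LNCaP-WT libraries, which is 1.16-fold higher (0.21 ± 0.051, adjusted p = 0.0012). MTRR, the reductase that keeps methionine synthase active, had 33.4, 31.9 and 36.4 CPM in the LNCaP-ENZR libraries, against 28.3, 25.2 and 28.1 CPM in the LNCaP-WT libraries, 1.25-fold higher (0.32 ± 0.080, adjusted p = 0.0016). The groups did not overlap in these 3 genes, as in 11129 of all 15422 tested genes, and the changes of MAT2A and MTRR stayed under 1.5-fold. MTR, methionine synthase itself, had 73.9, 67.1 and 78.7 CPM in the LNCaP-ENZR libraries, against 83.1, 67.8 and 75.9 CPM in the LNCaP-WT libraries. Its libraries overlapped, with a log2 fold change of -0.045 ± 0.077 (adjusted p = 0.610). MAT2B, the regulatory partner of MAT2A, had 49.2, 39.7 and 45.2 CPM in the LNCaP-ENZR libraries, against 45.2, 50.4 and 43.6 CPM in the LNCaP-WT libraries, also with overlapping groups and a log2 fold change of -0.054 ± 0.082 (adjusted p = 0.572).

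**Figure D2:**
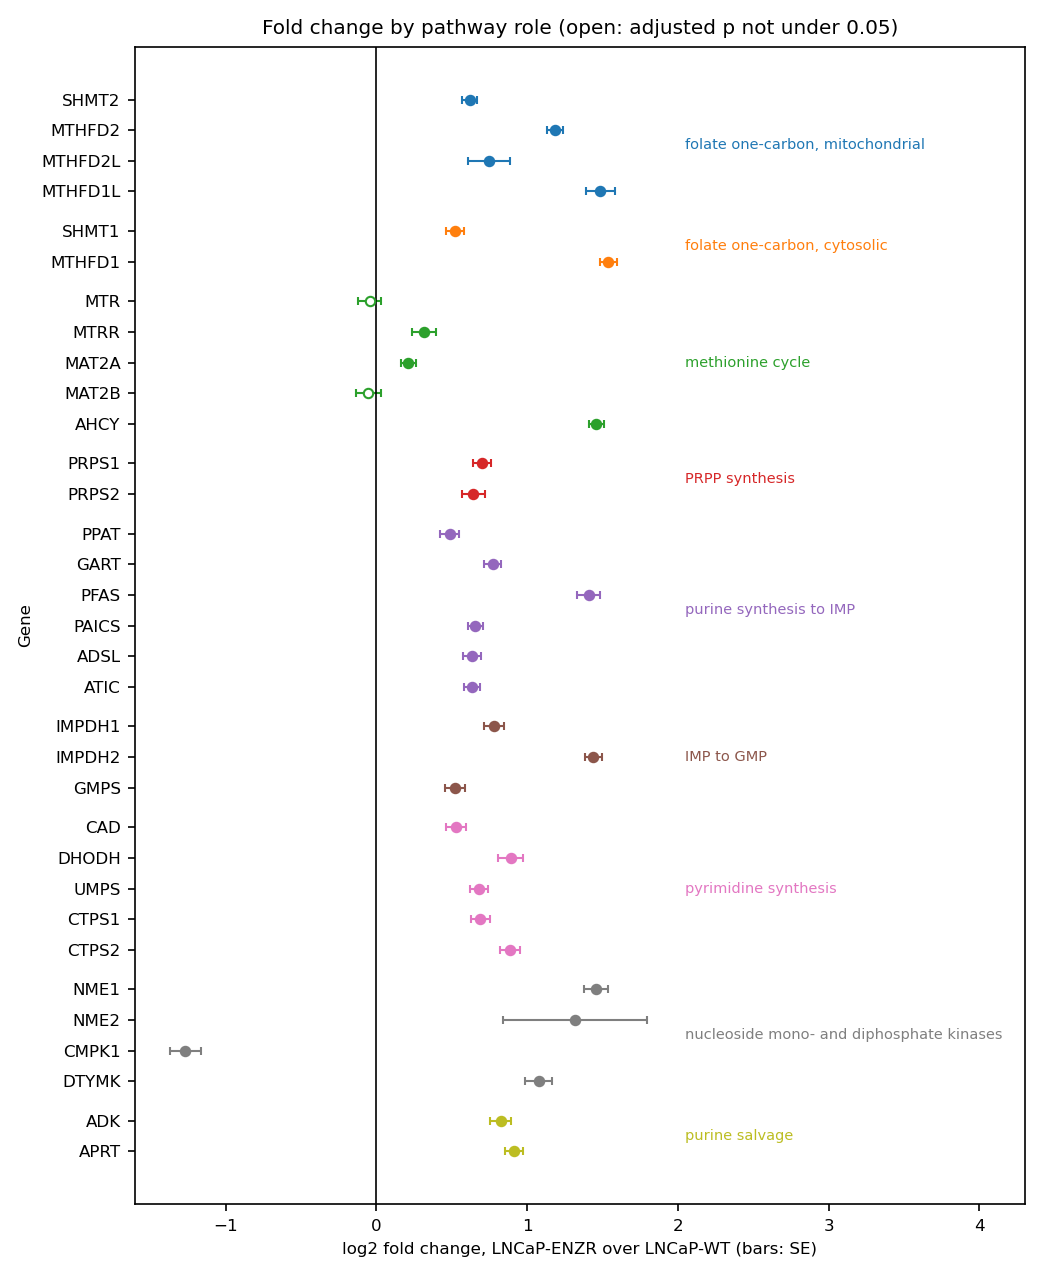
Log2 fold change of each gene, LNCaP-ENZR over LNCaP-WT, with bars of 1 SE from the edgeR fit (3 libraries a group), grouped and coloured by pathway role, open points marking the genes that did not pass. Values run from -1.27 for CMPK1 to 1.54 for MTHFD1, and MTR and MAT2B straddle 0.

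Both PRPP synthetase genes rose. PRPS1 had 139.8, 138 and 125 CPM in the LNCaP-ENZR libraries, against 83.7, 84.1 and 80.4 CPM in the LNCaP-WT libraries, a rise of 1.62-fold (0.70 ± 0.059, adjusted p = 3.4e-09, edgeR). PRPS2 had 64.9, 54.5 and 62.5 CPM in the LNCaP-ENZR libraries, against 37.9, 42.1 and 36.6 CPM in the LNCaP-WT libraries, a rise of 1.56-fold (0.64 ± 0.078, adjusted p = 5.3e-07). In neither gene did the groups overlap.

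The 6 genes from PRPP to IMP all rose, by a median of 0.65 on the log2 scale and with adjusted p-values of at most 1.1e-06 (edgeR, Benjamini-Hochberg). PPAT, the amidotransferase of the committed step, had 90.9, 83.8 and 88.5 CPM in the LNCaP-ENZR libraries, against 61.3, 66.4 and 60.2 CPM in the LNCaP-WT libraries, and at 1.40-fold (0.49 ± 0.063) it changed least of the 6. GART, a protein with several activities that include a formyl transfer from folate, had 129, 131 and 132 CPM in the LNCaP-ENZR libraries, against 78.8, 77.4 and 73.7 CPM in the LNCaP-WT libraries, 1.71-fold higher (0.77 ± 0.056). PFAS, a glutamine-using synthetase of the same stretch, had 60.05, 64.5 and 58.7 CPM in the LNCaP-ENZR libraries, against 23.6, 20.998 and 24.5 CPM in the LNCaP-WT libraries. PFAS rose most of the 6, by 2.65-fold (1.41 ± 0.076), while the remaining genes lay close together. PAICS, which carries a carboxylase and a synthetase, had 651, 604 and 629 CPM in the LNCaP-ENZR libraries, against 397, 409 and 389 CPM in the LNCaP-WT libraries, 1.58-fold higher (0.66 ± 0.050). ADSL, a lyase used here and again on the way to AMP, had 89.7, 89.3 and 85.4 CPM in the LNCaP-ENZR libraries, against 55.5, 58.2 and 56.6 CPM in the LNCaP-WT libraries, 1.55-fold higher (0.63 ± 0.059). ATIC, which adds the last formyl group and closes the ring to IMP, had 206, 217 and 203 CPM in the LNCaP-ENZR libraries, against 134, 139 and 131 CPM in the LNCaP-WT libraries, 1.55-fold higher (0.63 ± 0.053). In all 6 genes the lowest LNCaP-ENZR library was above the highest LNCaP-WT library.

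From IMP to GMP, all 3 genes rose. IMPDH2, 1 of the isozymes of the rate-limiting step of guanine nucleotide synthesis, had 279, 303 and 282 CPM in the LNCaP-ENZR libraries, against 109, 108 and 102 CPM in the LNCaP-WT libraries, a rise of 2.71-fold (1.44 ± 0.055, adjusted p = 3.1e-14, edgeR). IMPDH1, the other isozyme, had 106, 123 and 110.4 CPM in the LNCaP-ENZR libraries, against 63.4, 64.1 and 69.4 CPM in the LNCaP-WT libraries, a rise of 1.72-fold (0.78 ± 0.066, adjusted p = 3.3e-09). GMPS, which aminates XMP to GMP, had 194, 161 and 174 CPM in the LNCaP-ENZR libraries, against 122, 130.2 and 117 CPM in the LNCaP-WT libraries, 1.43-fold higher (0.52 ± 0.067, adjusted p = 1.6e-06). The groups were apart in each of these genes, with the narrowest gap in GMPS.

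All 5 pyrimidine synthesis genes rose within a narrow range, from 1.44-fold to 1.85-fold, with adjusted p-values of at most 5.1e-07 (edgeR, Benjamini-Hochberg). CAD, the large enzyme that opens the pathway, had 123, 133 and 135 CPM in the LNCaP-ENZR libraries, against 91.6, 83.1 and 96.6 CPM in the LNCaP-WT libraries (0.53 ± 0.064 on the log2 scale). DHODH, which sits in the mitochondrial inner membrane and passes its electrons to the respiratory chain, had 28.9, 31.9 and 30.4 CPM in the LNCaP-ENZR libraries, against 15.5, 16.3 and 17.4 CPM in the LNCaP-WT libraries. At 0.89 ± 0.084, or 1.85-fold, DHODH was level with CTPS2. UMPS, which completes UMP, had 85.7, 86.3 and 90.4 CPM in the LNCaP-ENZR libraries, against 54.8, 54.6 and 54.1 CPM in the LNCaP-WT libraries (1.60-fold, 0.68 ± 0.059). CTPS1, 1 of the synthetases of CTP, had 83.6, 83.0 and 82.0 CPM in the LNCaP-ENZR libraries, against 55.5, 49.8 and 48.8 CPM in the LNCaP-WT libraries (1.61-fold, 0.69 ± 0.065). CTPS2, the other one, had 51.3, 50.7 and 53.7 CPM in the LNCaP-ENZR libraries, against 27.8, 28.8 and 27.6 CPM in the LNCaP-WT libraries (0.89 ± 0.068). The groups did not overlap in any of the 5.

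Among the kinases that turn nucleoside mono- and diphosphates into triphosphates, 3 rose and 1 fell. NME1, a nucleoside diphosphate kinase, had 45.6, 50.9 and 43.7 CPM in the LNCaP-ENZR libraries, against 16.3, 17.4 and 17.3 CPM in the LNCaP-WT libraries, a rise of 2.75-fold (1.46 ± 0.080, adjusted p = 6.0e-12, edgeR). DTYMK, thymidylate kinase, had 45.0, 49.2 and 45.2 CPM in the LNCaP-ENZR libraries, against 19.0, 24.4 and 22.8 CPM in the LNCaP-WT libraries, a rise of 2.11-fold (1.08 ± 0.087, adjusted p = 2.2e-09). CMPK1, which phosphorylates CMP and UMP and so stands between UMP and all other pyrimidine nucleotides, had 81.0, 62.1 and 67.7 CPM in the LNCaP-ENZR libraries, against 159, 191 and 157 CPM in the LNCaP-WT libraries. Its highest LNCaP-ENZR library was far below its lowest LNCaP-WT library, and it fell 2.41-fold (-1.27 ± 0.10, adjusted p = 5.6e-07). Because CMPK1 was the most counted of the 4 kinases, their summed level was lower in the resistant cells, at 157 to 172 CPM in LNCaP-ENZR and 195 to 233 CPM in LNCaP-WT. NME2, a paralogue of NME1, was barely counted, with 21, 27 and 18 counts in the LNCaP-ENZR libraries, against 8, 5 and 14 counts in the LNCaP-WT libraries. It rose 2.49-fold (1.32 ± 0.48, adjusted p = 0.0194), but the call was lost without LNCaP-ENZR library 2 (adjusted p = 0.080), without LNCaP-WT library 1 (0.058) or without LNCaP-WT library 2 (0.098). The NME1-NME2 readthrough gene in RefSeq spans both genes on chromosome 17, from 51153559 to 51171744, and has no row in the count table, and NME2 shares 22.9% of its exon bases with other genes in GENCODE release 29, so its level is uncertain.

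Both purine salvage genes of the set rose. APRT, which recycles adenine with PRPP, had 127, 136 and 121 CPM in the LNCaP-ENZR libraries, against 67.2, 69.0 and 68.5 CPM in the LNCaP-WT libraries, 1.88-fold higher (0.91 ± 0.060, adjusted p = 7.8e-11, edgeR). ADK, which phosphorylates adenosine, had 79.6, 75.4 and 73.3 CPM in the LNCaP-ENZR libraries, against 42.9, 46.7 and 39.4 CPM in the LNCaP-WT libraries, 1.77-fold higher (0.82 ± 0.071, adjusted p = 4.0e-09). The groups were separate in both genes.

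Some of these counts could hold reads of other genes, since neither the strand setting nor the counting mode is stated in the sources at hand. MTHFD2 shares 33.2% of its GENCODE 29 exon bases with other genes, including 27.2% with SLC4A5 on the opposite strand, which itself had 0.133 CPM in LNCaP-ENZR and 1.16 CPM in LNCaP-WT on average. ADSL shares 18.9% and NME1 18.6%. Pseudogenes named after the gene are annotated for 11 of the 33, with 7 each for MTHFD2, PAICS and IMPDH1 and 6 for AHCY, and near-identical copies can take up reads.

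Promoter sequences are shown for MTHFD1, MTHFD1L and ATIC, chosen because they hold the E-box letters described next, and for CMPK1, the gene that fell. The choice says nothing of how common the motif is among genes that rose: AHCY and PFAS, with rises of 2.75-fold and 2.65-fold, hold neither motif in this window. Each is the 250 bases before the start site in RefSeq (GRCh38.p14), written 5′ to 3′ on the plus strand, which is the gene's strand. Capitals mark CACGTG, the E-box letters known to be bound by MYC with its partner MAX, and TGATGNAA, letters known from ATF4-bound elements, both searched on both strands, where CACGTG reads the same on either, and with no overlap between the motifs.
MTHFD1, chr14:64388103-64388352: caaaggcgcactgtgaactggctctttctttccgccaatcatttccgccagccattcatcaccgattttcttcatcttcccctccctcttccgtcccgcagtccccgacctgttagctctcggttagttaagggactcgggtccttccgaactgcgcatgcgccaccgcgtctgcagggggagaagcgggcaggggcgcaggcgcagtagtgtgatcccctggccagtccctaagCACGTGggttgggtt
MTHFD1L, chr6:150866236-150866485: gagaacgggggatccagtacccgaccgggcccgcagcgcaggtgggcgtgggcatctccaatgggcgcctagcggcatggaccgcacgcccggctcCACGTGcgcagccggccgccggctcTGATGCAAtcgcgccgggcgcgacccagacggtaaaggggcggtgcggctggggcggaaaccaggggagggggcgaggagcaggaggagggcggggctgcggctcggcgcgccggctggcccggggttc
ATIC, chr2:215311809-215312058: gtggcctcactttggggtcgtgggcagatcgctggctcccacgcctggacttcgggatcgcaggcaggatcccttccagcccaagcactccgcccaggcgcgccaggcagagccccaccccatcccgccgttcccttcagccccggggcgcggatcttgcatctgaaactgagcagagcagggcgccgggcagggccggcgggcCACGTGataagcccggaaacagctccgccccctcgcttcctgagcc
CMPK1, chr1:47333540-47333789: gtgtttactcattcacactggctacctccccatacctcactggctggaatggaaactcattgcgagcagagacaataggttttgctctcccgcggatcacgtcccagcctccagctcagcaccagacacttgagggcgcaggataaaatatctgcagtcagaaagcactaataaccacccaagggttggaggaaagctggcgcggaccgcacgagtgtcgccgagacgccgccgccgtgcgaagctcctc
CACGTG starts 15 bases before the start site of MTHFD1, 154 before that of MTHFD1L and 46 before that of ATIC, and TGATGNAA starts 129 bases before that of MTHFD1L. ATIC holds another CACGTG that starts at base 30 from the start site, downstream of the printed stretch. Neither motif is present in the CMPK1 stretch. Promoters were at hand for 29 of the 33 genes, each as 250 bases before to 50 after the start site. CACGTG was found in 6 of these 29, 20.69%, against 10.02% of the 12062 promoters of tested genes and 7.43% of all 27305 promoters of that length. The other 3 genes with it were PPAT, DHODH and NME1. TGATGNAA was found in 1 of the 29, 3.45%, against 1.69% of tested genes and 3.67% of all promoters. These are matches of letters and no test was made, and binding was not measured.

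PPAT and PAICS, neighbours in the pathway, are also neighbours on chromosome 4 and are transcribed away from each other. The PPAT start in RefSeq is base 56435615, on the minus strand, and the most upstream PAICS start in GENCODE 29 is base 56435741, on the plus strand. There 3 of the 8 PAICS transcripts start within the PPAT promoter window, whereas the RefSeq table gives a PAICS start at base 56410507. The CACGTG of the PPAT promoter begins at -182 from its start, beyond the GENCODE start of PAICS. PAICS was searched for both motifs around its RefSeq start, not around the GENCODE start. The 125 bases between the PPAT start and the GENCODE start of PAICS, written 5′ to 3′ on the PPAT strand, hold neither motif.
PPAT to PAICS, chr4:56435616-56435740: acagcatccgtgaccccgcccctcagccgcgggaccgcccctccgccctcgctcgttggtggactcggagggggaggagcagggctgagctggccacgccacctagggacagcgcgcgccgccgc
Read against these starts, the FPKM ratio of PPAT to PAICS within each library was 0.291, 0.289 and 0.293 in LNCaP-ENZR and 0.322, 0.338 and 0.322 in LNCaP-WT. All LNCaP-ENZR values were below all LNCaP-WT values, a difference of -0.17 ± 0.024 on the log2 scale (exact permutation p = 0.1, two-sided).

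FPKM, counts divided by gene model length and library total, sets levels beside each other between genes only as far as the lengths hold. The lengths behind the deposited FPKM come from an annotation that is not stated, and they differ from GENCODE 29 exon lengths. For SHMT2 they are 2675 and 4838 bases, and for MTHFD1L 13295 and 5021 bases. The ranks below hold for the deposited FPKM, and other lengths could change them. SHMT2 had the highest FPKM of the set in LNCaP-ENZR and MAT2A in LNCaP-WT. SHMT2 averaged 153 ± 7.29 FPKM in LNCaP-ENZR and 106 ± 2.37 FPKM in LNCaP-WT (SD, n = 3 each). MAT2A averaged 117 ± 4.15 FPKM in LNCaP-ENZR and 108 ± 3.40 FPKM in LNCaP-WT, so that SHMT2 and MAT2A did not differ beyond their spread in LNCaP-WT. IMPDH2 averaged 135 ± 5.66 FPKM in LNCaP-ENZR and 52.7 ± 1.57 FPKM in LNCaP-WT, which put it at rank 2 in LNCaP-ENZR and rank 6 in LNCaP-WT. APRT, at rank 3 in both groups, averaged 134 ± 7.27 FPKM in LNCaP-ENZR and 75.5 ± 1.08 FPKM in LNCaP-WT, and in LNCaP-ENZR its level and that of IMPDH2 did not differ beyond their spread. AHCY was at rank 5 in LNCaP-ENZR and rank 9 in LNCaP-WT, and NME1 at rank 10 in LNCaP-ENZR and rank 19 in LNCaP-WT. NME2 had the lowest FPKM in both groups.

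Ratios within a library do not depend on how libraries are scaled. Their size depends on the gene lengths used, which cancel in the log2 difference between groups. Of 10 ratios compared, 7 separated the groups completely, which gives the smallest p an exact permutation test of 3 against 3 allows, 0.1 (two-sided, 0.143 after Benjamini-Hochberg adjustment over the 10), so none could reach 0.05. IMPDH2 over IMPDH1 was 3.65, 3.41 and 3.53 in LNCaP-ENZR and 2.37, 2.32 and 2.04 in LNCaP-WT, a log2 difference of 0.66 ± 0.073 and the widest shift between isozymes. SHMT2 over SHMT1 was 4.02 ± 0.019 in LNCaP-ENZR and 3.77 ± 0.080 in LNCaP-WT (SD, n = 3 each), a log2 difference of 0.094 ± 0.018. MTHFD2 over MTHFD2L was 40.8 ± 2.70 in LNCaP-ENZR and 30.6 ± 4.70 in LNCaP-WT. MAT2A over MAT2B was 6.60 ± 0.50 in LNCaP-ENZR and 5.48 ± 0.498 in LNCaP-WT. In these isozyme or subunit pairs every LNCaP-ENZR library had the higher ratio. CTPS1 over CTPS2 was lower in the resistant cells, at 1.99 ± 0.076 in LNCaP-ENZR and 2.28 ± 0.179 in LNCaP-WT. PPAT over APRT, the committed step of synthesis set against adenine salvage, was also lower, at 0.173 ± 0.016 in LNCaP-ENZR and 0.232 ± 0.011 in LNCaP-WT (log2 difference -0.42 ± 0.087). The groups overlapped in MTHFD1L over MTHFD1 (log2 difference -0.050 ± 0.077, exact p = 0.6), PRPS1 over PRPS2 (0.057 ± 0.11, exact p = 0.8) and NME1 over NME2 (0.018 ± 0.45, exact p = 1).

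**Figure D3:**
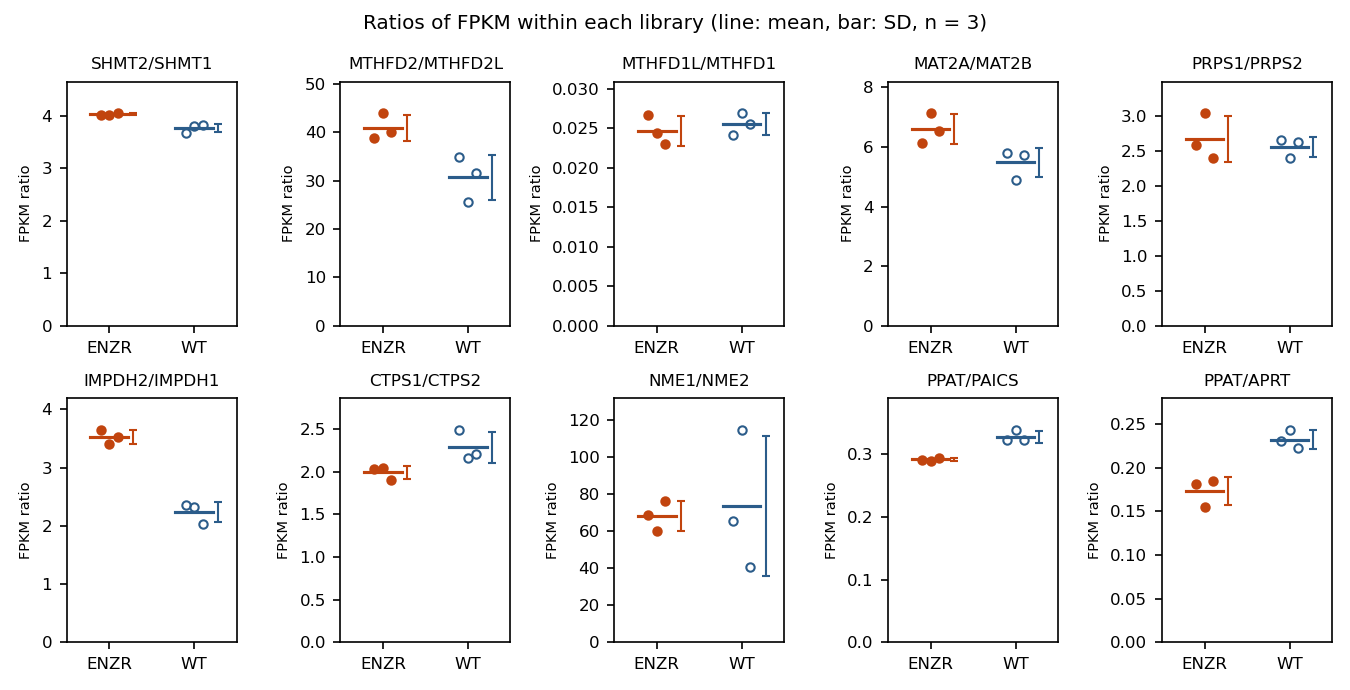
Ratio of the FPKM values of 2 genes within each library for the 10 pairs, each panel on its own axis from 0, with filled points for LNCaP-ENZR and open points for LNCaP-WT, a line at the mean and a bar of 1 SD (3 libraries a group). IMPDH2/IMPDH1 is higher in every LNCaP-ENZR library and PPAT/PAICS lower, while PRPS1/PRPS2, MTHFD1L/MTHFD1 and NME1/NME2 overlap.

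Further genes of the same routes did not share the near-uniform rise. The 92 genes listed cover supply, transport, interconversion, salvage and breakdown, and include the regulators MYC and ATF4. Of these 92, 75 passed the filter: 37 rose, 21 fell and the remaining 17 did not pass. Their median log2 fold change was 0.16. As a share, 49.3% rose and 28% fell, beside 34.4% and 34.8% of all tested genes. Serine and glycine supply was the most uniform of the larger lists, with 8 of 9 rising (88.9%) and none falling. GLDC, the decarboxylase of the glycine cleavage system, had 18.6, 19.2 and 19.97 CPM in the LNCaP-ENZR libraries, against 4.39, 5.61 and 6.72 CPM in the LNCaP-WT libraries, a 3.45-fold rise (adjusted p = 3.0e-10, edgeR). PSPH, which makes serine from phosphoserine, rose 2.22-fold, with 38.8 ± 1.40 CPM in LNCaP-ENZR and 17.5 ± 0.803 CPM in LNCaP-WT (SD, n = 3 each). PHGDH and PSAT1, the enzymes ahead of PSPH, rose 1.73-fold and 1.72-fold, and were chosen after their values were seen.

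Of 13 tested genes of folate uptake, reduction and storage, 6 rose (46.2%), 3 fell (23.1%) and 4 did not pass. Of all tested genes, 34.4% rose and 34.8% fell. TYMS, thymidylate synthase, had 96.7, 96.6 and 99.4 CPM in the LNCaP-ENZR libraries, against 47.1, 57.0 and 50.5 CPM in the LNCaP-WT libraries, a 1.89-fold rise (adjusted p = 5.6e-10, edgeR), and was chosen after its values were seen. Of 7 tested genes of methyl donor and transsulfuration metabolism, 3 rose (42.9%), 3 fell (42.9%) and 1 did not pass. With so few genes, these shares are close to the 34.4% and 34.8% of all tested genes. CBS, which opens transsulfuration, rose 2.41-fold, with 106 ± 14.8 CPM in LNCaP-ENZR and 43.7 ± 1.997 CPM in LNCaP-WT, although GRCh38 holds a near-identical copy of CBS that could share its reads. DMGDH, a mitochondrial dehydrogenase of choline breakdown, fell 5.43-fold, with 1.998 ± 0.426 CPM in LNCaP-ENZR and 10.9 ± 0.577 CPM in LNCaP-WT. AHCYL1, a relative of AHCY best known as a partner of the IP3 receptor, fell 2.02-fold, with 140.3 ± 7.61 CPM in LNCaP-ENZR and 283 ± 6.27 CPM in LNCaP-WT, the opposite direction to AHCY.

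Of 22 tested genes of purine interconversion, salvage and breakdown, 8 rose (36.4%), 6 fell (27.3%) and 8 did not pass, shares near those of all tested genes (34.4% and 34.8%). PNP, which splits purine nucleosides for salvage or breakdown, had 91.1, 98.2 and 91.8 CPM in the LNCaP-ENZR libraries, against 28.6, 29.02 and 28.1 CPM in the LNCaP-WT libraries, a 3.28-fold rise (adjusted p = 2.2e-14, edgeR). NT5C2, a cytosolic nucleotidase that acts on IMP and GMP, rose 2.85-fold, and GMPR2, which returns GMP to IMP, 2.07-fold. Of genes chosen after their values were seen, ADSS1, a synthetase that turns IMP towards AMP, fell 1.71-fold, and ADSS2, its isozyme, had 42.4 ± 5.80 CPM in LNCaP-ENZR and 42.5 ± 4.20 CPM in LNCaP-WT and did not pass. ADSL, the lyase that completes the AMP branch as well, rose 1.55-fold, as given above. HPRT1, which salvages hypoxanthine and guanine and was also chosen after its values were seen, fell 1.17-fold (adjusted p = 0.0145), and this call was lost without LNCaP-ENZR library 3 (adjusted p = 0.119) or LNCaP-WT library 2 (0.074). APRT and HPRT1, the PRPP-using salvage enzymes, thus had opposite signs.

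Of 19 tested genes of pyrimidine salvage, kinases and breakdown, 8 rose (42.1%), 9 fell (47.4%) and 2 did not pass, beside 34.4% and 34.8% of all tested genes. TK1, the cytosolic thymidine kinase, known to be made in dividing cells, had 249, 274 and 257 CPM in the LNCaP-ENZR libraries, against 55.9, 58.4 and 53.9 CPM in the LNCaP-WT libraries, a 4.64-fold rise (adjusted p = 2.0e-16, edgeR). UCK2, which phosphorylates uridine and cytidine, rose 2.81-fold, with 177 ± 7.71 CPM in LNCaP-ENZR and 63.1 ± 2.27 CPM in LNCaP-WT. Of the 3 nucleoside transporter genes tested, 2 rose and 1 did not pass. Both listed regulators rose: MYC 2.31-fold, with 401 ± 8.48 CPM in LNCaP-ENZR and 174 ± 5.44 CPM in LNCaP-WT, and ATF4, a transcription factor of the amino acid response, 1.81-fold, with 484 ± 21.1 CPM in LNCaP-ENZR and 267 ± 10.9 CPM in LNCaP-WT. Whether either acts on these genes was not measured.

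**Figure D4:**
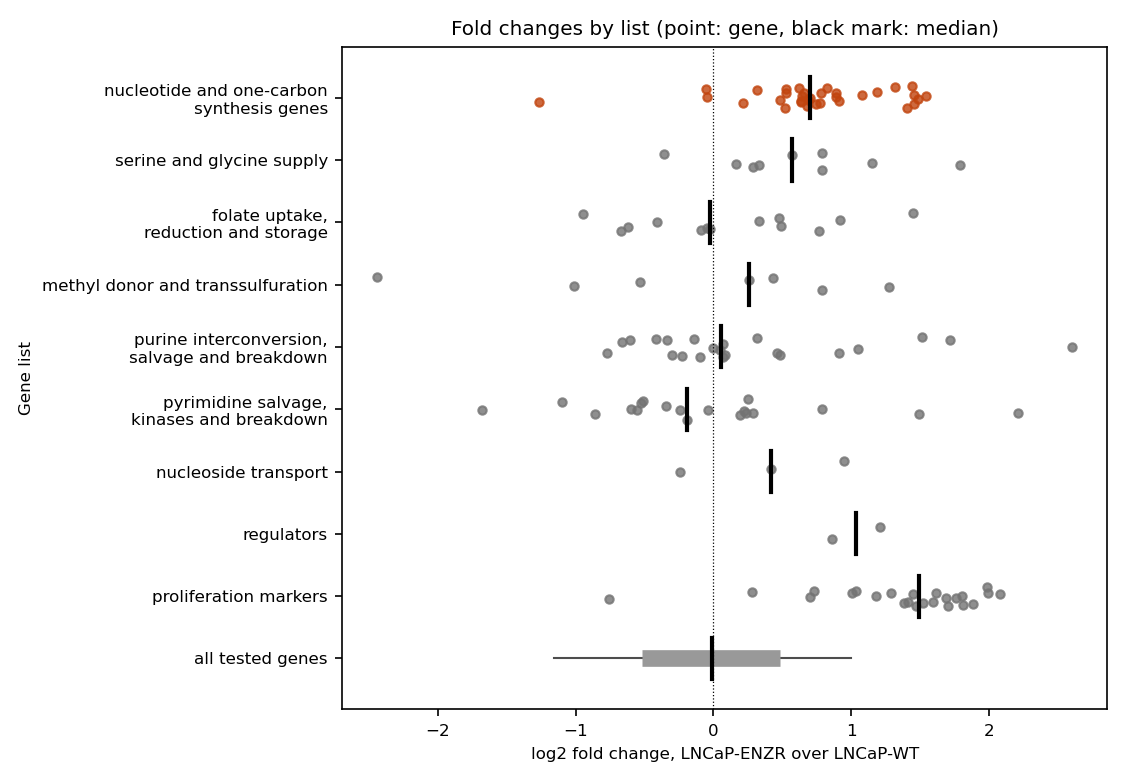
Log2 fold changes, LNCaP-ENZR over LNCaP-WT, of the tested genes of each list (points) with the list's median (black mark), and for all 15422 tested genes the median, quartiles (bar) and 10th to 90th percentile (line). The synthesis genes centre on 0.70 with CMPK1 apart at -1.27, the proliferation markers centre on 1.49, and the lists of folate storage and of purine and pyrimidine salvage spread over both sides of 0.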

How the data were processed

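Gene counts as deposited by the authors (raw, whole numbers) and their deposited FPKM table were used. Per the labels' protocols, RNA was extracted with TRIzol and the VAHTS Universal V6 kit gave libraries that were read as 150 bp pairs. HISAT2, HTSeq, fastp and build GRCh38 appear in the submitters' processing notes, without roles. Neither annotation release, counting mode nor strand setting is given in the sources used here. FPKM were the deposited counts divided by length and library total: lengths implied by both tables differed between libraries by at most 0.000141% over 23998 genes.

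Counts were fitted with edgeR 4.0.16 in R 4.3.3 (filterByExpr, TMM, robust quasi-likelihood F test, two-sided, no covariates), leaving 15422 genes, with Benjamini-Hochberg adjustment over all of them. SE is the log2 fold change divided by the square root of F. The common biological coefficient of variation was 7.41%. Pairs of libraries within a group differed beyond counting noise (chi-square per degree of freedom 3.83 to 12.7), so none was counted as a duplicate. The members and gene lists were chosen with earlier results of these data known. Every member is named, other listed genes if called with at least a 2-fold change and a mean of 100 counts, up to 5 a list, plus MYC and ATF4. Exceptions are marked in the text, and some genes that this rule names are not reported here. Ratios were compared by exact permutation tests over libraries.

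Promoters came from RefSeq (GRCh38.p14) and exon overlaps from GENCODE release 29. No promoter was at hand for SHMT2, MTRR, ADSL and IMPDH2. In simulated data with 15422 genes, 54%, 82%, 90% and 100% of 50 genes changed 1.25-fold, 1.5-fold, 2-fold and 4-fold were recovered, with 8 false calls. Only 200 genes were changed in the simulation, far fewer than were called in the data, so these rates need not hold for the data. The 14 alternatives were DESeq2 1.42.0 size factors, library totals, no filter, a stricter filter (1 CPM in 3 libraries, mean of 50 counts), limma-voom (limma 3.58.1), the DESeq2 Wald test, a replicate block, a gene length offset and each library left out.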

Additional observations from a re-analysis of the deposited data

How the results depend on the processing

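Under the 14 alternatives, 29 or 30 of the 33 synthesis genes rose and 1 fell, and 30 of the 33 kept both direction and call in every alternative that gave them a value. The exceptions were NME2, MTR and MAT2B. The stricter filter removed NME2. Over all genes, 4643 to 5674 rose and 4761 to 6111 fell. With library totals alone the median of all tested genes moved to -0.098 on the log2 scale, 30.1% rose and 39.6% fell, and the median of the 33 genes was 0.61. Of the other pathway genes, 32 to 38 rose and 19 to 25 fell. With the replicate number as a block, 30 of the 33 rose and 1 fell, and of the other pathway genes 36 rose and 21 fell. The numbers did not clearly pair the libraries: same-number correlations of deviations were 0.013, 0.027 and 0.065. LNCaP-ENZR 1 correlated best with LNCaP-WT 2 (0.064), while LNCaP-ENZR 2 and LNCaP-ENZR 3 correlated best with the LNCaP-WT library of their own number.

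Values near 0 changed sign. With the length offset, MTR had a log2 fold change of 0.055 and ADSS2 0.020. ADSS2 was at 0.0071 with DESeq2 size factors and with no filter and at 0.0070 by the DESeq2 Wald test. With 1 library left out at a time, the log2 fold change ranged from -0.12 to 0.031 for MTR, -0.12 to 0.034 for MAT2B, -0.10 to 0.086 for ADSS2, 1.03 to 1.78 for NME2 and -0.30 to -0.15 for HPRT1. The log2 ratio difference ranged from -0.11 to 0.00070 for MTHFD1L/MTHFD1, -0.039 to 0.13 for PRPS1/PRPS2 and -0.35 to 0.40 for NME1/NME2. The cause of the sign changes was not tested. NME2 had 5 to 27 counts a library, and the cause of its lost calls was not tested.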

Other observations

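Other nucleoside monophosphate kinases, chosen after their values were seen, were counted beside CMPK1. GUK1, guanylate kinase, fell 1.52-fold, with 111 ± 7.72 CPM in LNCaP-ENZR and 168 ± 8.27 CPM in LNCaP-WT (SD, n = 3 each, adjusted p = 4.1e-08 by edgeR). AK4, a mitochondrial adenylate kinase relative, fell 1.59-fold, with 215 ± 7.02 CPM in LNCaP-ENZR and 341 ± 2.54 CPM in LNCaP-WT (adjusted p = 7.2e-10). AK1, the cytosolic adenylate kinase, fell 1.26-fold, with 45.7 ± 3.78 CPM in LNCaP-ENZR and 57.7 ± 2.54 CPM in LNCaP-WT (adjusted p = 3.7e-04). DTYMK, which works on thymidylate, rose, as given above.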
